A study of Homo sapiens with 6 samples.

Results

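GLIPR1 and 8 other genes of the p53 pathway (MDM2, MDM4, GDF15, ZMAT3, TP53I3, RRM2B, BTG2 and DDB2) were followed in xenograft tumors with and without the TRA2B-DNAH5 fusion. GLIPR1 was chosen by its log2 levels in these same tumors, which were higher with the fusion. The others were chosen as known targets or regulators of p53, with results of this comparison in view. The question was whether the other p53 targets were also higher with the fusion. Probe sets whose platform annotation names exactly 1 of these genes numbered 42 and covered 8 of the 9 genes, of 18132 genes with such a probe set in all. BTG2, an antiproliferative p53 target, had 0, so no level of it is given here. Both groups were tumors of CRL-5889, an established human lung squamous carcinoma line, grown in nude mice for 4 weeks. The cells of 3 tumors (TD) had been transfected with the TRA2B-DNAH5 fusion, and those of the other 3 tumors (ctrl) with the vector. Whether either cell population was 1 clone, and which mouse carried which tumor, is not given in the sources used here, so differences between the transfected populations cannot be told apart from the fusion. Each tumor was measured on 1 Affymetrix array, all levels below are the deposited log2 values, and differences are fusion minus vector.

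p53 is a transcription factor that is stabilised when DNA is damaged or growth control fails, and it then switches on genes that stop the cell cycle, repair DNA, adjust metabolism or kill the cell. MDM2, a ubiquitin ligase, and its relative MDM4 bind p53 and hold it down, and MDM2 is itself a p53 target, which closes a feedback loop. GLIPR1 belongs to the CAP family of cysteine-rich proteins. It was described as a p53 target in prostate cells, and other inputs also control it in other tissues.

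The DNA that p53 reads is shown for the members where RefSeq promoters (GRCh38.p14, 250 bases before to 50 after each annotated start) hold it. Levels were not compared between genes with and without such DNA. The search took the p53 response element, 2 copies of its 10-base motif on either strand with 0 or 1 base between them. It required the CNNG core of each copy and allowed up to 3 mismatches over both copies together. Promoters were present for 7 of the 9 members (12 promoters), not for GLIPR1 and RRM2B. Of these, 3 genes had a match, in 4 promoters, 2 of which are overlapping MDM2 windows that hold the same site. Capitals mark the 2 motif copies, and each site lies on the forward strand.
MDM2, chr12:68808918-68808947: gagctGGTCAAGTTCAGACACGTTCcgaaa
DDB2, chr11:47214975-47215004: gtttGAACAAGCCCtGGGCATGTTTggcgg
GDF15, chr19:18386178-18386207: acctgcacAGCCATGCCCGGGCAAGAACtc
The DDB2 site had 0 mismatches and began at base 6 after an annotated start of the gene. The MDM2 site had 2 mismatches and began 94 and 101 bases before 2 annotated starts downstream of the gene's outermost start, and the GDF15 site had 3 mismatches and began at base 29 after the start. A match was found in 2.38% of all 35116 promoters of this length and in 13.2% of the 106 promoters of the other p53 pathway genes described below. A match is a description of letters, and its absence from a window says only that these letters are not there.

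The labelled tissue was compared with markers of squamous and epithelial cells. SOX2 (8.70 to 8.92 in fusion tumors and 9.24 to 10.10 in vector tumors), the desmosomal protein DSP (9.94 to 10.37 and 10.39 to 10.70) and KRT18 (8.38 to 8.73 over the 6 tumors) lay well above 4.94, the log2 level below which probe sets were treated as dim. The squamous keratins KRT5 (4.90 to 5.41) and KRT14 (5.51 to 5.90) lay near that level, and EPCAM and CDH1 lay below it in every tumor. Vector tumor 1 stood apart from the other 5 arrays on the first principal component of all probe sets, with a score of 55.8 against -14.8 to -2.73. Values without it are therefore given beside the named genes whose difference it moved most, with the probe set of each gene kept. Array medians ran from 6.27 to 6.39, lowest in vector tumor 1.

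GLIPR1 stood at 8.54, 8.85 and 8.98 in fusion tumors 1 to 3 and at 7.50, 7.58 and 7.78 in vector tumors 1 to 3. Every fusion tumor lay above every vector tumor, and the lowest fusion tumor was fusion tumor 1. The means were 8.79 ± 0.23 and 7.62 ± 0.15 (SD, n = 3 each), a difference of 1.17 on the log2 scale (SE 0.14) or 2.25-fold. Because the gene was chosen for this difference, it is given as a description and without a test. In bulk tumors, more cells with a transcript and more of it per cell cannot be told apart.

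All 6 GLIPR1 probe sets showed the same order of the groups. Their differences ran from 0.94 to 1.60, which is 1.92-fold to 3.03-fold, with a median of 1.33. The set with the largest difference read 6.88, 7.41 and 7.64 in fusion tumors and 5.93, 5.70 and 5.51 in vector tumors. The set with the smallest read 6.86, 7.10 and 7.14 against 6.25, 5.93 and 6.09. Fusion tumor 1 was the lowest of the fusion tumors in 6 of 6 sets, while vector tumor 1 was the lowest of the vector tumors in 4 of 6. The groups did not overlap in any of the 6 sets, beside 5.94% of all 49293 probe sets that lay apart in this direction. The probe sets read 1 gene in the same RNA and are not replicates.

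**Figure D1:**
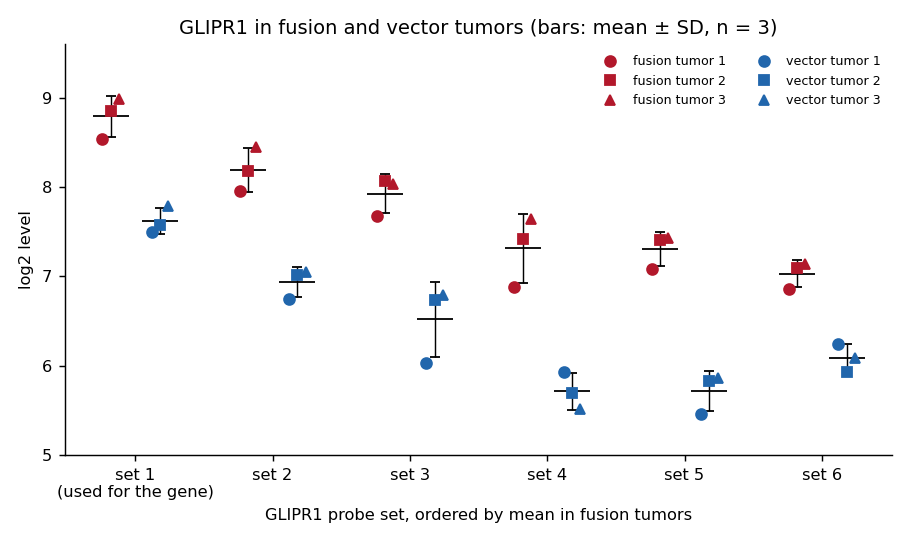
Log2 level (y axis) of each GLIPR1 probe set (x axis) in the 3 fusion tumors (red) and 3 vector tumors (blue), with black bars for mean ± SD. In each of the 6 probe sets the red points lie above the blue ones, and fusion tumor 1 (red circle) is the lowest red point.

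The p53 inhibitors MDM2 and MDM4 had small differences between the groups. MDM2 stood at 6.94, 7.43 and 7.13 in fusion tumors and 6.95, 7.17 and 7.31 in vector tumors, so the groups overlapped fully. Its difference was 0.026 (SE 0.15). MDM4, which blocks the activation domain of p53, stood at 9.04, 8.97 and 8.47 in fusion tumors and 8.34, 8.98 and 8.94 in vector tumors. The lowest MDM4 values were those of vector tumor 1 and fusion tumor 3, and the difference was 0.074 (SE 0.21).

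Counting every probe set, both genes leaned higher in fusion tumors with all 6 tumors counted, and the values without vector tumor 1 lay on both sides of 0. All 11 MDM2 sets had a difference above 0, from 0.026 to 0.32, and 7 of them were above 0 without vector tumor 1 (-0.21 to 0.27). All 6 MDM4 sets were above 0 (0.074 to 0.22), and without vector tumor 1 only 1 was, with a range of -0.29 to 0.11. In 6 of 6 MDM4 sets vector tumor 1 was the lowest of the 6 tumors, and in 8 of 11 MDM2 sets. Of the MDM2 sets, 7 carry a name ending in _x_at, the array's mark for probes that can match other sequences, and 6 had a mean below 4.94, so their values are the less certain ones. The set used for MDM2 had neither limit and was at -0.069 without vector tumor 1. Another set with neither limit was at 0.26, with overlapping groups, and at 0.13 without vector tumor 1. The set at 0.32 carries the _x_at mark but was not dim. Its groups lay apart, and it was at 0.27 without vector tumor 1.

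The genes of DNA repair and nucleotide supply overlapped between the groups as well. DDB2, which recognises ultraviolet damage for nucleotide excision repair, stood at 9.03, 8.70 and 8.96 in fusion tumors and 8.73, 8.84 and 8.78 in vector tumors. Fusion tumor 2 was the lowest of all 6, and the difference was 0.11 (SE 0.11). RRM2B, the p53-induced subunit of ribonucleotide reductase, stood at 9.70, 9.61 and 9.72 in fusion tumors and 9.19, 9.74 and 9.85 in vector tumors. Its difference of 0.083 (SE 0.16) came with a single low value, in vector tumor 1, and turned to -0.12 without that tumor. Over 9 RRM2B probe sets the differences ran from 0.013 to 0.29 with all tumors and from -0.12 to 0.17 without vector tumor 1, when 5 of 9 were above 0.

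GDF15, a secreted stress cytokine of the TGF-beta superfamily, was the other member whose groups did not overlap in the probe set used for the gene. It stood at 6.31, 6.30 and 6.33 in fusion tumors and 6.24, 6.15 and 6.16 in vector tumors, a difference of 0.13 (SE 0.084) or 1.10-fold. The tumors of each group were close together, and the difference was small beside the 1.17 of GLIPR1. The other 4 GDF15 probe sets overlapped between the groups and had differences below 0, down to -0.11, and 2 of the 5 sets had a mean below 4.94. The order of the groups thus held in 1 of 5 sets. The name of that set ends in _x_at, the mark for probes that can match other sequences, so its values are less certain.

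ZMAT3, a zinc finger protein that binds RNA, and TP53I3, a quinone oxidoreductase linked to reactive oxygen, also overlapped between the groups. ZMAT3 stood at 8.53, 8.44 and 8.81 in fusion tumors and 8.37, 8.50 and 8.53 in vector tumors (difference 0.12, SE 0.12), and only fusion tumor 3 lay above all vector tumors. The set used for ZMAT3 carries the _x_at mark, and the gene's second probe set, without that mark, had a difference of 0.14. TP53I3, read by 1 probe set, stood at 10.59, 10.33 and 10.47 in fusion tumors and 10.59, 10.48 and 10.48 in vector tumors. Its difference was -0.056 (SE 0.099), the only one below 0 among the 8 measured members.

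**Figure D2:**
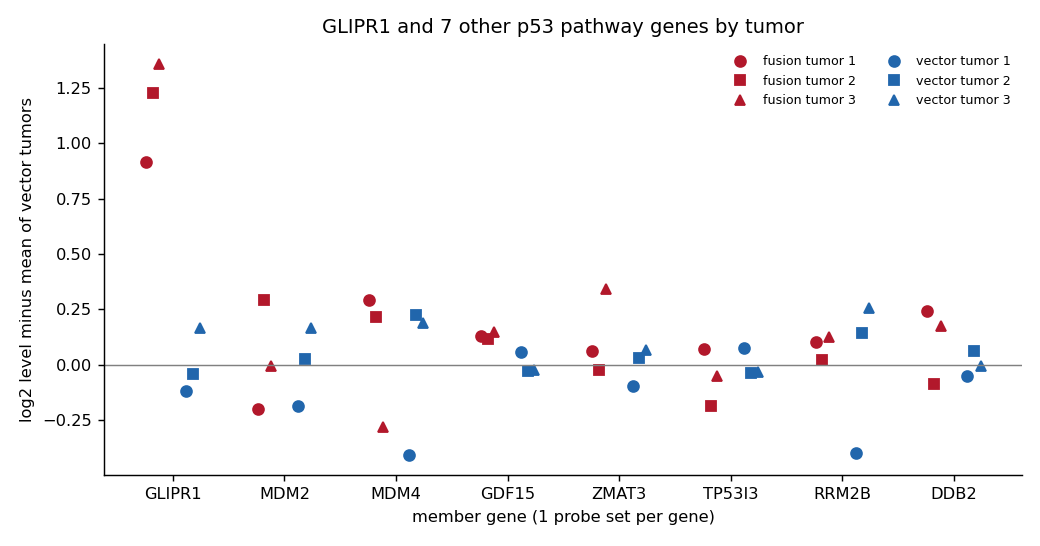
Log2 level of each member in each tumor minus the mean of the 3 vector tumors (y axis), for the probe set used for each gene (x axis), with fusion tumors in red and vector tumors in blue. GLIPR1 in fusion tumors lies 0.91 to 1.36 above the vector mean, whereas red and blue points mix for 6 of the other 7 genes and lie close together for GDF15.

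By gene, the 7 other measured members had differences from -0.056 to 0.13 with a median of 0.083, against a median of 0.0020 over all 13694 genes tested. Of the 7, 6 were above 0, as were 50.8% of all genes tested, and 1 lay apart in the higher direction (GDF15), where 5.94% of all genes did. All 7 passed the filter on dim probe sets. Without vector tumor 1, 3 of the 7 were above 0, with a range of -0.13 to 0.16 and a median of -0.019. Since the genes were picked with results of this comparison in view, these counts are descriptions and carry no test.

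Over their 36 probe sets, 31 had a difference above 0, beside 52.8% of all probe sets, and 3 lay apart in the higher direction, where 5.94% of all probe sets did. The median was 0.12. Without vector tumor 1, 19 of 36 were above 0, beside 49.6% of all probe sets, and the median was 0.019. Vector tumor 1 gave the lowest of the 6 values in 21 of the 26 probe sets of MDM2, MDM4 and RRM2B, in 4 of the 10 of the other 4 genes, and in 29.3% of all probe sets. The smallest GLIPR1 difference, 0.94, lay above the largest of any other member's probe set, 0.32. Beside the low values in vector tumor 1 stands its mean over 8 skeletal muscle markers, 6.28 against 5.42 to 6.05 in the other 5 tumors; the part of this in the MDM4 and RRM2B values was not tested.

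**Figure D3:**
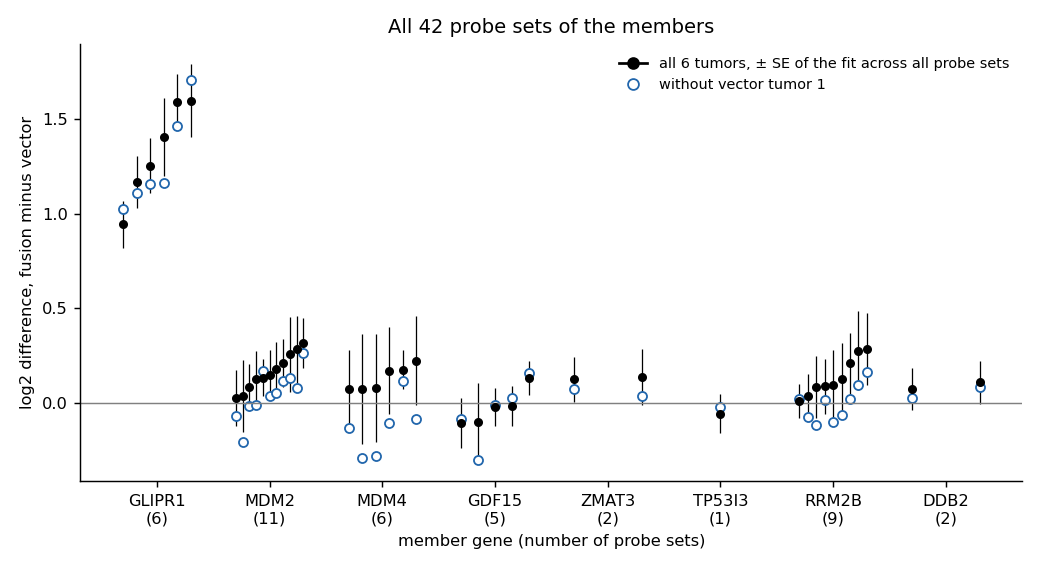
Difference of the log2 level between fusion and vector tumors (y axis) for each probe set of the 8 measured members (x axis, number of sets in brackets). Black points use all 6 tumors and carry the SE of the fit across all probe sets, and open circles leave out vector tumor 1. GLIPR1 lies between 0.94 and 1.60, and the open circles of MDM2, MDM4 and RRM2B lie around 0.

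The rest of the pathway was read from 89 further genes in 6 lists: p53 and its regulators, and targets in the cell cycle, cell death, DNA repair, metabolism, and secretion or signalling. The lists were written from general knowledge, with earlier results of these data known. Of the 89 genes, 83 had a probe set and 78 passed the filter. By limma, adjusted by Benjamini-Hochberg over every gene tested, 0 of 78 were called higher and 0 lower at an adjusted p of 0.05, where 0.0584% and 0.0146% of all genes were called. The smallest adjusted p was 0.420. At an unadjusted p below 0.05 there were 2 higher and 1 lower, beside 3.16% and 2.73% of all genes. The groups lay apart for 4 genes in the higher and 1 in the lower direction (5.94% and 5.74% of all genes). The median difference of the 78 was -0.022, with 35 above 0 and 43 below. Without vector tumor 1 the median was 0.022, with 48 above 0.

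Among the cell cycle targets, GADD45A, a growth arrest gene induced by DNA damage, had the largest difference, 0.71 (SE 0.27, limma adjusted p = 0.730). It stood at 9.30, 10.48 and 10.01 in fusion tumors and 9.41, 9.26 and 8.98 in vector tumors, so fusion tumor 1 lay within the range of the vector tumors. The GADD45A difference was 0.44 without fusion tumor 2, 1.03 without fusion tumor 1 and 0.81 without vector tumor 1. CDKN1A, the cyclin-dependent kinase inhibitor p21 and the standard readout of p53 activity, stood at 9.62, 9.80 and 9.78 in fusion tumors and 9.83, 9.25 and 8.65 in vector tumors. The vector tumors spread over more than the difference of 0.49 (SE 0.25, limma adjusted p = 0.917), and vector tumor 1 was the highest of all 6. The CDKN1A difference was 0.78 without vector tumor 1 (limma adjusted p = 0.154) and 0.19 without vector tumor 3 (adjusted p = 0.864). TOB1 (-0.21) and SFN (-0.034, and 0.026 without vector tumor 1) were below 0, and the 9 genes of this list had a median of -0.022, which was 0.083 without vector tumor 1.

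The cell death targets had a median of 0.026 over 17 genes. TNFRSF10D, a decoy receptor for the death ligand TRAIL, stood at 7.60, 7.70 and 8.02 in fusion tumors and 7.04, 7.54 and 7.47 in vector tumors, a difference of 0.42 (SE 0.16, limma adjusted p = 0.767). The groups did not overlap, but fusion tumor 1 and vector tumor 2 were close. The difference was 0.26 without vector tumor 1 and 0.15 with the mean of the gene's probe sets. Its relative TNFRSF10C was at 0.10, and at 0.16 without vector tumor 1. BID, which links death receptors to mitochondria, and PERP, a membrane protein of junctions, were at -0.14 and -0.11, and without vector tumor 1 at -0.0012 and 0.0015.

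FUCA1, a lysosomal fucosidase, had the smallest p of the pathway. It stood at 7.21, 7.30 and 7.50 in fusion tumors and 7.77, 7.70 and 7.71 in vector tumors, a difference of -0.39 (SE 0.10, limma adjusted p = 0.420) in the direction opposite to GLIPR1. All fusion tumors lay below all vector tumors. The metabolic targets LPIN1 and SESN2 leaned on vector tumor 1. LPIN1, a phosphatidate phosphatase, was at 0.51 and SESN2, a stress-induced inhibitor of mTORC1 signalling, at 0.29, and without that tumor they were at 0.18 and 0.12. PANK1, a pantothenate kinase, was at -0.14, and the median of the 13 metabolic genes was -0.0067.

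The remaining lists lay near 0. The DNA repair targets had a median of -0.0069 over 6 genes, with XPC, the damage sensor of excision repair, at 0.094 and POLH, a translesion polymerase, at -0.13. Without vector tumor 1 they were at 0.0038 and -0.040. The secreted, surface and signalling targets had a median of -0.030 over 19 genes, from -0.30 for the immediate early gene IER5 to 0.33 for the ubiquitin ligase RNF19B. Both ends moved with single tumors: IER5 was at -0.13 without vector tumor 1, -0.15 without fusion tumor 1 and -0.48 without vector tumor 3, and RNF19B at 0.57 without vector tumor 1 and 0.16 without vector tumor 3. Among p53 and its regulators (median -0.033 over 14 genes), the checkpoint kinase ATR was at 0.32 but at 0.028 without vector tumor 1. CHEK1, the kinase it activates, stood at 9.20, 9.28 and 9.23 against 9.16, 9.01 and 9.09, apart by a small difference of 0.15. HIPK2, a kinase that phosphorylates p53, was at -0.21, and at -0.22 without vector tumor 1.

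**Figure D4:**
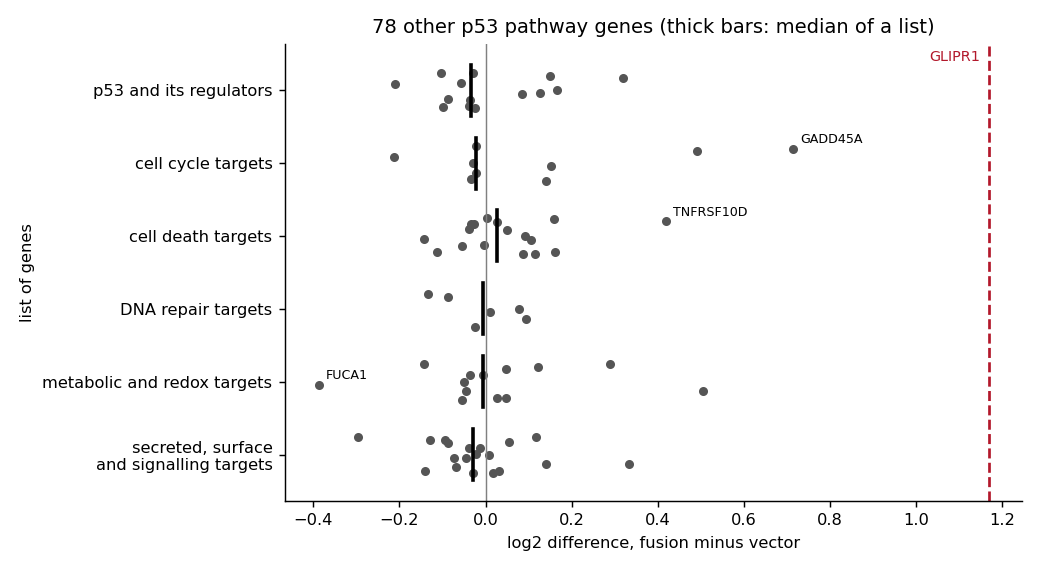
Difference of the log2 level between fusion and vector tumors (x axis) for each of the 78 other p53 pathway genes, by list (y axis), with thick bars for the median of each list and a dashed line for GLIPR1. Names are given where the unadjusted limma p was below 0.05. The medians lie between -0.033 and 0.026 and no point reaches GLIPR1 at 1.17.

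None of the CAP family relatives of GLIPR1 passed the test. Of 10 relatives with a probe set, 6 passed the filter, and limma called 0 of them in either direction, with 0 at an unadjusted p below 0.05 (adjusted p of 0.963 or above). Their differences ran from -0.17 for CRISPLD2, a secreted member of the family, to 0.14 for CRISP1, and without vector tumor 1 those genes were at -0.062 and 0.073. GLIPR1L1 (3.86 to 4.05) and GLIPR1L2 (3.07 to 3.31), which lie beside GLIPR1 on chromosome 12, were below the dim level in all 6 tumors.

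The 4 tested genes among the 6 nearest to GLIPR1 in the RefSeq order leaned in the same direction by smaller amounts, and limma called 0 of them (0 lower and 1 higher, KRR1, at an unadjusted p below 0.05). KRR1, a factor of small ribosomal subunit assembly, follows GLIPR1 and overlaps it in RefSeq's gene spans. It stood at 9.61, 9.56 and 9.48 in fusion tumors and 9.19, 9.19 and 9.29 in vector tumors, a difference of 0.33 (SE 0.089, limma adjusted p = 0.462). Its groups lay apart in 5 of 5 probe sets, with differences of 0.26 to 0.48, beside 5.94% of all probe sets in this direction. The gene did not pass the threshold over all genes. Which strand the probe sets read is not given in the sources used here, so signal from the shared stretch of KRR1 and GLIPR1 cannot be told apart. CAPS2, a calcium-binding protein gene on the other side, was at 0.65 (SE 0.29, adjusted p = 0.857), with a low value of 4.95 in vector tumor 1 against 6.11 and 6.12 in the other vector tumors, and was at 0.26 without vector tumor 1. PHLDA1, a pleckstrin homology domain gene, and NAP1L1, a histone chaperone, were at 0.16 each. NAP1L1 was at 0.015 without vector tumor 1 and PHLDA1 at 0.066 without fusion tumor 3. The 4 PHLDA1 sets ran from 0.16, the set used, to 0.40, and the 10 NAP1L1 sets from 0.010 to 0.42. The groups lay apart in the higher direction in 1 of 4 CAPS2 sets, 1 of 4 PHLDA1 sets and 2 of 10 NAP1L1 sets. The probe sets used for KRR1 and NAP1L1 carry the _x_at mark.

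**Figure D5:**
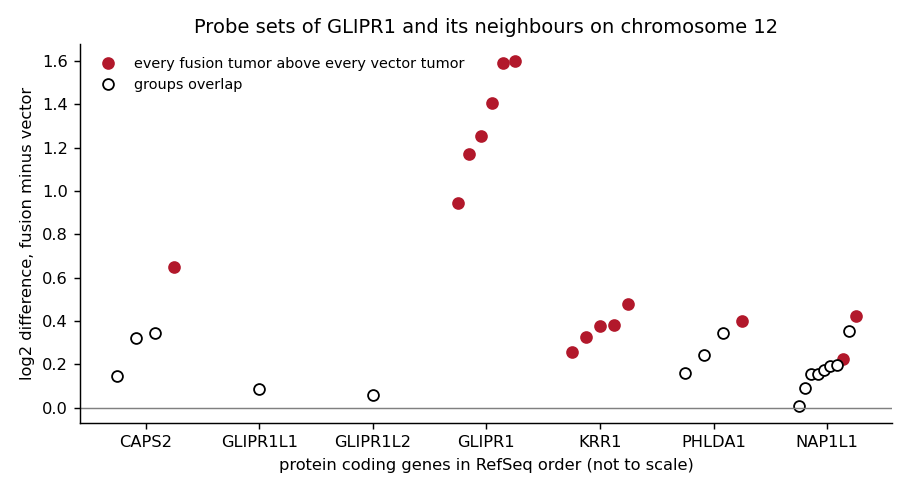
Difference of the log2 level between fusion and vector tumors (y axis) for each probe set of GLIPR1 and the 3 protein coding genes on either side (x axis, gene order, not to scale). Red points mark probe sets whose fusion tumors all lie above all vector tumors. This held for 6 of 6 GLIPR1 sets, 5 of 5 KRR1 sets, 1 of 4 CAPS2 sets, 1 of 4 PHLDA1 sets and 2 of 10 NAP1L1 sets.

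The genes whose profile over the 6 tumors was most like that of GLIPR1 were not among the other members. Likeness was the root mean square difference between values centred on each gene's own mean, and the 5 closest of 13693 genes were JUN (0.20), SAMD9 (0.22), ARL14 (0.23), ZMYM6 (0.23) and IL12A (0.24). JUN, a subunit of the AP-1 transcription factor, stood at 9.25, 9.62 and 9.72 in fusion tumors and 8.69, 8.76 and 8.64 in vector tumors, with fusion tumor 1 again the lowest of its group. SAMD9, an interferon-inducible gene, stood at 5.42, 5.51 and 5.56 against 4.69, 4.70 and 4.64. The closest member was ZMAT3 at 0.54, in place 1487, followed by GDF15 in place 1778, and the farthest was TP53I3 in place 9602. Because the values were centred but not scaled, genes with a small difference between the groups could not lie near GLIPR1. The places of the members thus restate their small differences. This order describes 6 tumors and was not tested.

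GLIPR1 is also expressed in myeloid cells, so markers of other cell types were set beside it. The tumor line was human and the hosts were mice, so host cells carry mouse transcripts. How far these bind the probe sets was not tested, so no marker value, low or high, is a measure of host cells. The same limit holds for the skeletal muscle markers above. Of 12 macrophage and leukocyte markers, 8 passed the filter, and the mean over the list was 5.40 to 5.48 in fusion tumors and 5.33 to 5.43 in vector tumors. PTPRC, CD14, CD163 and LYZ lay below the dim level in all 6 tumors, between 3.51 and 4.24. Of the 8 tested markers, limma called 0, and 2 lay apart in the higher and 1 in the lower direction (5.94% and 5.74% of all genes). The 2 were CD68, a lysosomal protein found beyond macrophages as well, at 0.80 (limma adjusted p = 0.112), and CSF1R at 0.17 (adjusted p = 0.935). The 1 was TYROBP at -0.13 (adjusted p = 0.962), which read 7.31 to 7.57 over the 6 tumors. Of 12 fibroblast markers, 9 passed the filter and limma called 0 of them, while 4 were higher and 1 lower at an unadjusted p below 0.05. FAP, a surface protease, was at 0.91 and the collagen gene COL1A1 at 0.65 (limma adjusted p = 0.202 and 0.593), whereas the fibrillin gene FBN1 was at -0.50 (adjusted p = 0.514), with every fusion tumor below every vector tumor. The mean over the fibroblast list was 6.82 to 6.89 in fusion tumors and 6.57 to 6.83 in vector tumors, while DCN, LUM and DPT were below or near the dim level. PDGFRA (12.8 to 13.4 over the 6 tumors, difference -0.15) and THY1 (10.4 to 11.0, difference 0.36) were the brightest of the list and raised this mean. Which cells they came from was not tested, so the mean is not a measure of fibroblast content. Some markers of other lists lay lower in fusion tumors. SOX2 was at -0.83 and DSP at -0.49 (limma adjusted p = 0.369 and 0.526), both with the groups apart, and they were the 2 of 7 tested squamous and epithelial markers at an unadjusted p below 0.05. The mean over that list was 6.26 to 6.46 in fusion tumors and 6.40 to 6.63 in vector tumors. Of 6 tested adipocyte markers, limma called 0, and 3 were lower at an unadjusted p below 0.05, among them PPARG at -0.38 (adjusted p = 0.658). The mean over the adipocyte list was 5.84 to 5.90 in fusion tumors and 5.97 to 6.13 in vector tumors. The part of these fibroblast, epithelial and adipocyte markers in the GLIPR1 difference was not tested.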

How the data were processed

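RNA of 6 tumors was hybridised to 1 array each, per the labels' protocols. The values the authors deposited are log2 levels per probe set, a scale read from the values themselves; their background correction and normalization are not stated in the labels. Groups and replicate numbers came from the sample titles, and no 2 arrays were identical. Names came from the platform annotation (44988 probe sets naming 1 gene, 18132 genes). For each gene the probe set with the highest mean was used, and genes dimmer on average than the 30th percentile over probe sets (4.94) were dropped, which left 13694. The 2 groups entered a two-sided limma fit (version 3.58.1, R 4.3.3; lmFit, then eBayes). P-values were adjusted by Benjamini-Hochberg over every gene tested, with a threshold of 0.05, and the fit was tested on simulated data. P-values measure the spread between 3 tumors a group; the number of arrays limits the precision. Figures were made in matplotlib 3.10.9 under Python 3.11.15.

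The members and lists were chosen with earlier results of these data known. Members carry no test. Named were all members, CDKN1A, any pathway gene past the threshold, the 2 genes of smallest p per list and direction, GLIPR1L1, GLIPR1L2, the 3 nearest genes on each side of GLIPR1 and the 5 most like it. Further markers were named after their values were seen. Some genes that this rule names are not reported here. The response element search was set after the data were examined. Alternatives covered the filter, the probe set of a gene, scaling, variance model, array weights, a replicate block and each tumor left out, with the genes tested and their probe sets kept.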

Additional observations from a re-analysis of the deposited data

How the results depend on the processing

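The GLIPR1 difference was above 0 in all 15 alternatives run. It ran from 1.07 to 1.30 with 1 tumor left out, from 1.14 to 1.60 otherwise, and was 1.60 when a gene was read by its most variable probe set. With that choice MDM2 was at 0.26, and with the mean of a gene's probe sets GDF15 was at -0.022. GDF15 could not be given with the 50th percentile filter or the most variable probe set, where its probe set was below the filter. DDB2 and ZMAT3 were above 0 in all 15 alternatives, while MDM2, MDM4, RRM2B and TP53I3 had values on both sides of 0. For these 4 genes every alternative lay within 1 SD between tumors of the reported value, except the 0.26 of MDM2. The other p53 pathway genes called numbered 0 higher and 0 lower in all 15, with a median from -0.051 to 0.027. The lowest adjusted p was 0.0836 (GADD45A, array weights). With array weights RNF19B was at 0.48 and CDKN1A at 0.66 (limma adjusted p = 0.0975 and 0.103). FUCA1 was then at -0.29 (limma adjusted p = 0.169). Over all genes, 10 were called, against 0 to 37 with 1 tumor left out, 140 with array weights, 1 with the 50th percentile filter, 16 with the mean of probe sets and 6 with the most variable probe set. Same-numbered deviations of fusion and vector tumors correlated at 0.097, 0.17 and 0.051, against -0.14 to -0.018 for differently numbered ones. Each tumor thus correlated best with its own number, although weakly. Whether equal numbers mark paired tumors is not given in the sources used here, and the main fit did not pair them. With the replicate number as a block the GLIPR1 difference was 1.17 (SE 0.098, against 0.14 without the block). With it, 8 genes were called over all genes and 0 of the other pathway genes. The depth of an array is not known, and dim probe sets (most MDM2 and some GDF15 and RRM2B sets) can understate a difference.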
